A study of Mus musculus with 8 samples.

Results

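The translation initiation and elongation factors are the proteins that bring messenger RNA, initiator tRNA and ribosomal subunits together and then move the ribosome along the message. Their genes were read here in kidney RNA of mice that model MUC1 kidney disease, after the small molecule BRD4780 or vehicle. Genes were taken by name: a symbol starting with Eif and a digit, without the kinases of eIF2 alpha, or starting with Eef1 or Eef2. A symbol also needed 10 or more expected counts in at least 4 of the 8 libraries. The name rule matched 59 genes, and 57 of them passed the count rule, out of 13394 genes in the table that passed it. Eef1a2, the eEF1A of muscle and neurons, and Eif4e1b, an eIF4E relative of the germ line, were left out, since neither reached 10 counts in any library. All 57 genes also passed the separate low-count filter of the test.

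All mice were male, 8 months old and carried the same knock-in allele of the MUC1 kidney disease model, so the vehicle mice have the disease allele too and no wild-type kidney is compared here. The BRD4780 group (4 mice) received 50 mg/kg daily for 7 days, and the vehicle group (4 mice) received saline on the same schedule. Titles call the treated samples AGN50, and groups follow the treatment label. RNA came from a sagittal section of the kidney, so each library mixes all cell types of the organ. Replicate numbers follow the order of deposition and pair nothing.

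Library totals were 23.2, 28.2, 27.8 and 5.74 M expected counts with BRD4780 and 28.5, 28.1, 16.6 and 23.8 M with vehicle. BRD4780 replicate 4 was the shallowest library. BRD4780 replicate 3 was the treated library nearest to the vehicle mean for 39 of 56 of the genes (without Eif3j2, which 2 libraries list at 0). Over all genes, the chi-square per degree of freedom between its counts and those of a vehicle library was 16.1 to 31.3. Against BRD4780 replicates 1 and 2 it was 53.9 and 75.2, and against the shallow replicate 4 it was 26.0. This measure grows with depth. Some results are therefore also given without BRD4780 replicate 3. It was picked from these same data, and without it edgeR called 12.1% of all genes tested higher and 11.3% lower. With all 8 libraries these were 2.3% and 0.623%. Adjusted p values without replicate 3 are description, not added evidence. Proximal tubule markers summed to 8901 to 13099 counts per M (CPM) in BRD4780 libraries and 10761 to 11402 CPM in vehicle libraries, so the main kidney cell type was present in every library. Podocyte markers (3 of 6 higher, summed level 193 to 294 CPM with BRD4780 and 54.4 to 134 CPM with vehicle) and endothelial markers (3 of 7 higher, 261 to 334 CPM and 127 to 240 CPM) moved with treatment. Of the thick ascending limb markers 2 of 5 were lower (1827 to 3057 CPM with BRD4780 and 2814 to 3847 CPM with vehicle). Leukocyte markers (0 of 4 called) summed to 10.5 to 24.5 CPM with BRD4780 and 10.8 to 28.2 CPM with vehicle, with at most 28 counts of Cd3e in any library (Adgre1 not analysed here). Adipocyte markers (0 of 4 called) summed to 9.04 to 37.5 CPM with BRD4780 and 31.7 to 129 CPM with vehicle, and the erythrocyte genes Hba-a1 and Alas2 (neither called) to 144 to 755 CPM and 453 to 1496 CPM. No call was made among 6 distal tubule and collecting duct or 5 fibroblast and smooth muscle markers. The part of these shifts in the results below was not tested. In whole tissue, fewer cells of a type and less RNA per cell cannot be told apart.

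Initiation starts when eIF2, carrying GTP and the initiator tRNA, joins the small ribosomal subunit with eIF1, eIF1A, eIF3 and eIF5. The eIF4F complex, made of the cap-binding protein eIF4E, the scaffold eIF4G and the helicase eIF4A, brings the message. The small eIF4E-binding proteins compete with eIF4G for the same surface of eIF4E, and the kinase mTORC1 releases them by phosphorylation. Phosphorylation of eIF2 alpha by stress kinases slows initiation in general and favours translation of the transcription factor ATF4. Elongation then runs on eEF1A, which delivers aminoacyl-tRNA, and eEF2, which moves the ribosome by a codon.

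Both genes past the threshold encode eIF4E-binding proteins, so the coding stretch that holds the eIF4E-binding motif is shown for one of them, Eif4ebp1, beside Eif4ebp2, which was not called. The motif reads tyrosine, any 4 residues, leucine and a hydrophobic residue, and it is a part that contacts eIF4E. The lines give 63 bases of the coding strand, 5′ to 3′, from GENCODE M21 transcripts on GRCm38 (mm10). The 21 bases of the motif codons are in capitals, and in each gene the stretch crosses an exon junction. Eif4ebp1 lies at chr8:27260329-27276674 on the plus strand and Eif4ebp2 at chr10:61428491-61452661 on the minus strand.
Eif4ebp1: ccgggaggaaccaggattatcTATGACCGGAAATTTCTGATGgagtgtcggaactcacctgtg
Eif4ebp2: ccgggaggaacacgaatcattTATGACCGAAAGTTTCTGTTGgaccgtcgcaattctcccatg
The stretches differed at 15 of 63 bases (76.2% identical), of which 3 were in the 21 motif bases. Despite this likeness, no run of 50 bases was shared between the transcripts of any pair among Eif4ebp1, Eif4ebp2 and Eif4ebp3, so a read of that length tells them apart.

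Of the 57 genes, 2 were higher with BRD4780 and 0 were lower (edgeR quasi-likelihood test, adjusted p under 0.05 over 13474 genes). Among all genes tested, 2.3% were called higher and 0.623% lower. The called genes were Eif4ebp3 and Eif4ebp1, both inhibitors of eIF4E. Every other factor, from the ternary complex to the elongation machinery, missed the threshold. At an unadjusted p under 0.05, 10 of the 57 were higher and 4 lower, against 13.9% and 10.7% of all genes. By DESeq2, which called 6.41% of genes higher and 3.69% lower, Eif5 also passed the threshold.

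The median log2 fold change of the 57 genes was 0.05, against 0.01 for all genes tested. It was positive for 37 genes and negative for 20, against 6952 positive and 6522 negative among all 13474 genes tested. For 50 of the 57 the 95% interval of the fold change lay inside 1.5-fold in both directions. The 7 whose interval reached further were Eif3j1, Eif3j2, Eif4e3, Eif4ebp1, Eif4ebp2, Eif4ebp3 and Eif5. Groups did not overlap for 7 genes, 4 higher with BRD4780 (Eif4ebp3, Eif5, Eif2a and Eif5a2) and 3 lower (Eif1b, Eef1e1 and Eif3i). Among all genes tested 7.44% stood apart upwards and 5.16% downwards.

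**Figure D1:**
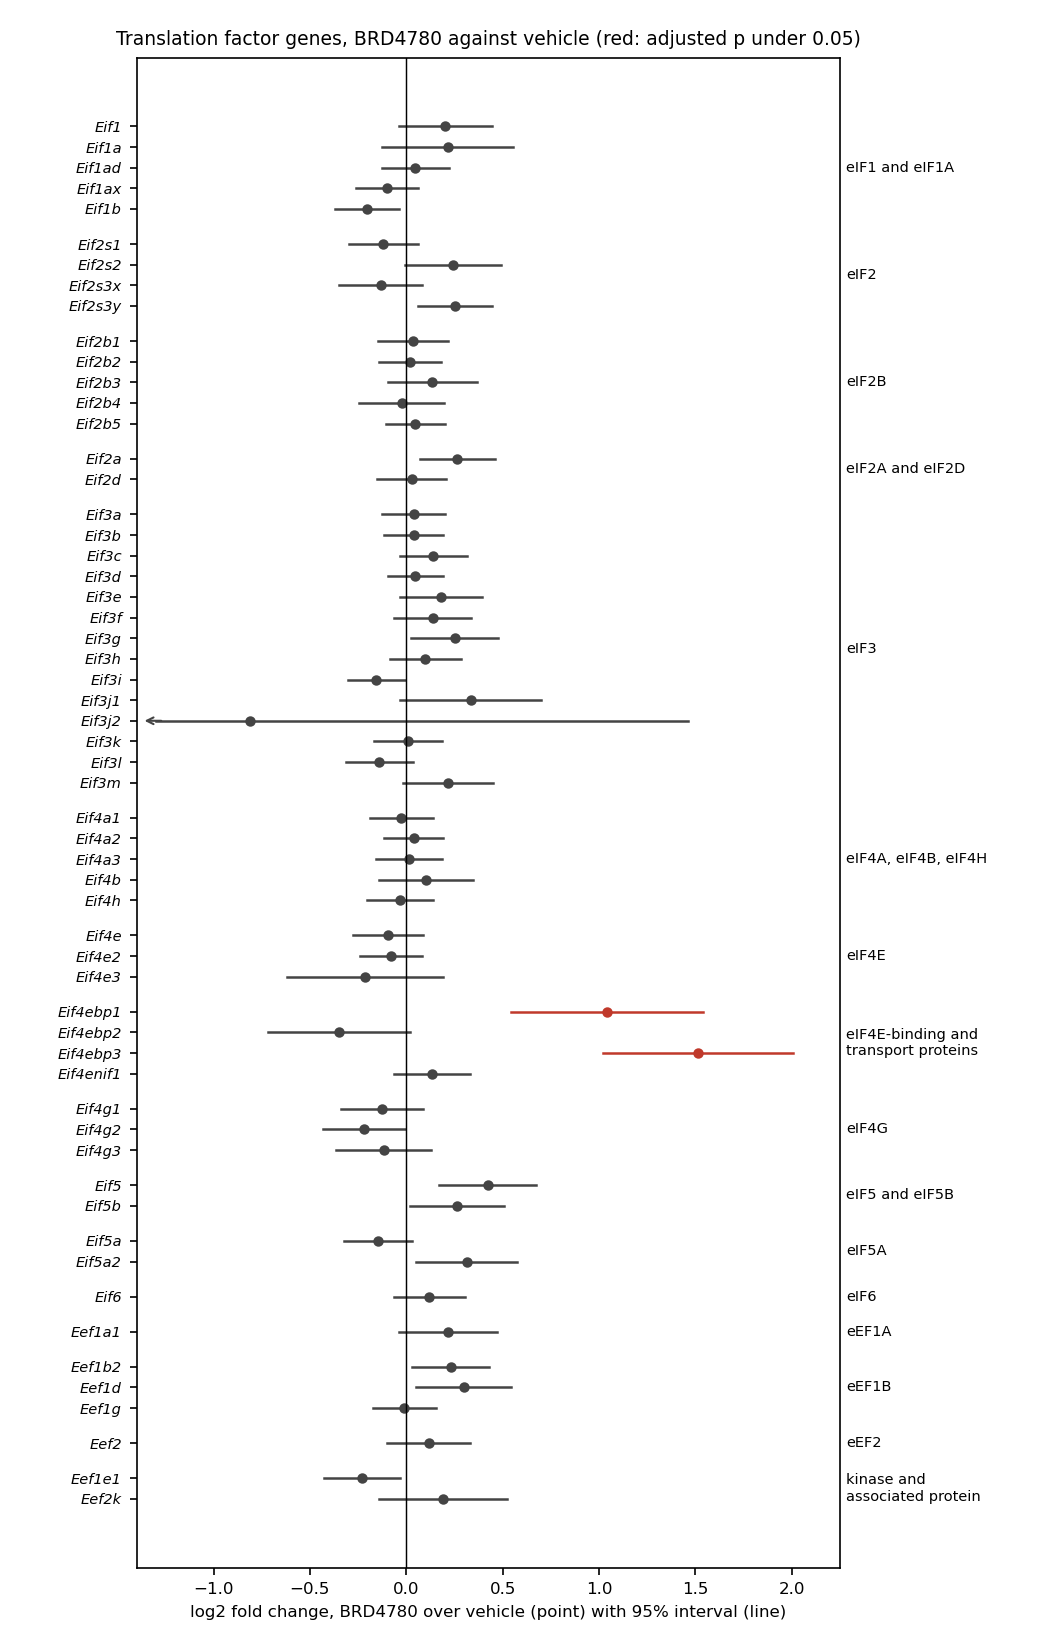
Log2 fold change of each of the 57 genes, BRD4780 over vehicle, with its 95% interval from the edgeR fit (horizontal axis), grouped by class down the page; red marks an adjusted p under 0.05. Eif4ebp3 (1.52) and Eif4ebp1 (1.04) lie to the right of the others, and the interval of Eif3j2, which runs down to -3.08, is clipped at the arrow.

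Eif4ebp3, the least studied of the eIF4E-binding proteins, had 66.9, 75.0, 33.7 and 78.8 CPM in the BRD4780 libraries, against 20.0, 22.3, 22.7 and 23.5 CPM in the vehicle libraries. The lowest treated library, replicate 3, was still above the highest vehicle library. The log2 fold change was 1.52 ± 0.22 (SE; 2.86-fold, 95% interval 1.02 to 2.01 in log2, edgeR adjusted p = 0.0121). Behind these values stood 1617, 2235, 897 and 471 expected counts with BRD4780 and 556, 606, 372 and 546 with vehicle. Without vehicle replicate 2 the adjusted p was 0.0583 at a log2 fold change of 1.52, and without BRD4780 replicate 3 the log2 fold change was 1.73.

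Eif4ebp3 shares a locus with other transcripts. In GENCODE M21, 501 of its exon bases lie in AC115631.1, a same-strand gene annotated across it, and 65.5% of its runs of 50 bases occur there as well. AC115631.1 was not analysed here, and the sources used here do not say how the counting split such reads. Ankhd1, the neighbour whose exons lie upstream on the same strand, averaged 61.8 ± 5.32 CPM with BRD4780 and 56.6 ± 8.01 CPM with vehicle (SD, n = 4 each). Its log2 fold change was 0.13 ± 0.11 (edgeR adjusted p = 0.486).

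Eif4ebp1, the best known target of mTORC1 among these inhibitors, had 23.5, 31.1, 15.0 and 32.5 CPM with BRD4780 and 11.7, 15.4, 11.1 and 10.7 CPM with vehicle. Treated replicates 1, 2 and 4 stood above all vehicle libraries, and treated replicate 3 fell just below vehicle replicate 2. The log2 fold change was 1.04 ± 0.22 (2.06-fold, 95% interval 0.54 to 1.54, edgeR adjusted p = 0.0428). The call was lost by limma-voom (adjusted p = 0.0723) and when any library other than BRD4780 replicate 3 was left out (edgeR adjusted p 0.0728 to 0.125). Without BRD4780 replicate 3 it stood at 1.23 (edgeR adjusted p = 0.000756).

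Eif4ebp2, the form known mainly from brain, had a log2 fold change of the opposite sign. It had 10.6, 15.0, 19.3 and 12.9 CPM with BRD4780 and 20.6, 18.3, 18.1 and 17.0 CPM with vehicle. Treated replicate 3 lay inside the vehicle range and the other treated libraries lay below it. The log2 fold change was -0.35 ± 0.17 (edgeR adjusted p = 0.223), and without replicate 3 it was -0.53 (adjusted p = 0.0182). Without treated replicate 1 it was -0.21 (edgeR adjusted p = 0.442), and without treated replicate 2 it was -0.36 (adjusted p = 0.328). Eif4enif1, which carries eIF4E into the nucleus and to processing bodies, had 33.5, 32.8, 27.8 and 32.5 CPM with BRD4780 and 27.4, 26.9, 30.9 and 30.1 CPM with vehicle, and the groups overlapped.

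Per kilobase of principal transcript, the scale on which different genes can be set side by side, the 3 eIF4E-binding proteins summed to 104, 119, 56.1 and 124 CPM per kilobase with BRD4780 and 36.2, 40.9, 39.1 and 39.9 with vehicle. Eif4ebp3 made up 84.3 ± 2.63% of this sum with BRD4780 and 76.1 ± 2.84% with vehicle, and Eif4ebp2 2.92 ± 2.03% and 8.23 ± 1.09% (SD, n = 4 each). The same sum divided by the level of Eif4e per kilobase was 8.82, 8.73, 4.14 and 8.57 with BRD4780, against 2.38, 2.83, 2.90 and 2.91 with vehicle. The ratio of inhibitor to target message was above every vehicle library in all 4 treated libraries, with replicate 3 the lowest of them. Since Eif4ebp3 makes up most of the sum, the ratio largely restates the values of that gene. The sum, the shares and the ratio also carry the limit of the bases that Eif4ebp3 shares with AC115631.1. They depend too on the length used, that of the longest principal transcript. This was 744 bases for Eif4ebp3, 1997 for Eif4ebp1 and 5784 for Eif4ebp2. In CPM, not divided by length, these 3 genes averaged 63.6, 25.5 and 14.4 with BRD4780 and 22.1, 12.2 and 18.5 with vehicle. All these values are of messages, and protein and its phosphorylation were not measured.

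**Figure D2:**
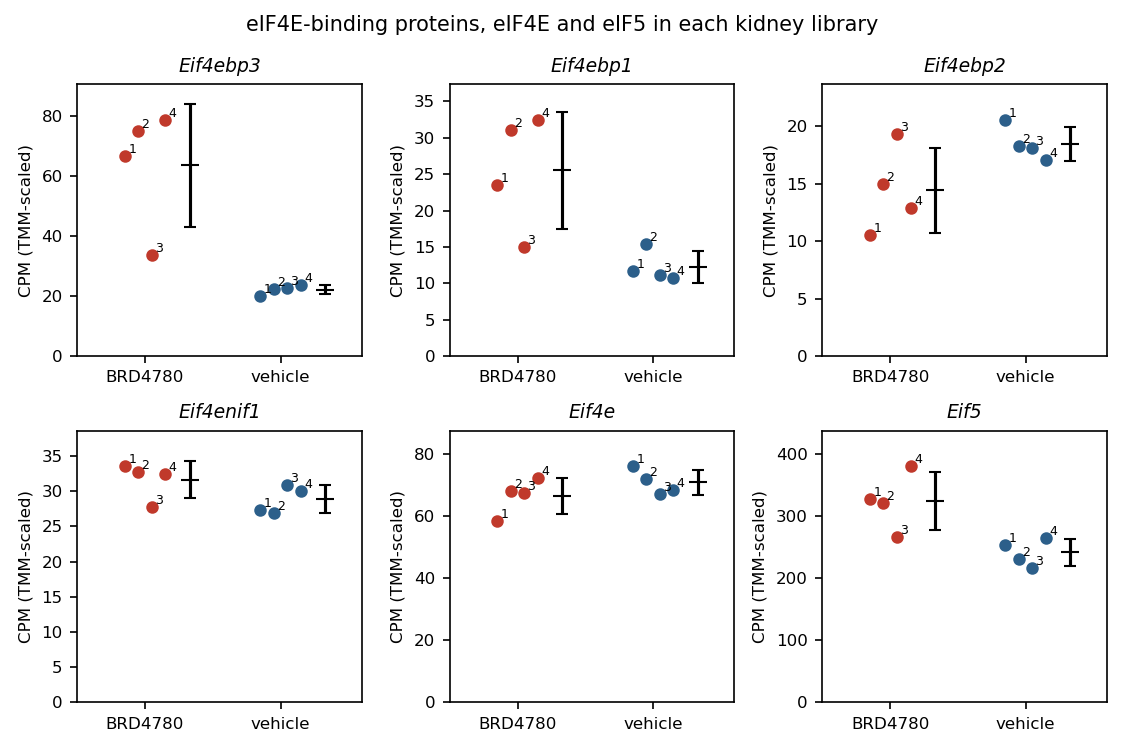
CPM with TMM-scaled totals (vertical axes, from 0) of the 3 eIF4E-binding proteins, Eif4enif1, Eif4e and Eif5 in each library; points carry replicate numbers and bars give mean and SD of 4. Eif4ebp3 and Eif5 have groups apart, and Eif4ebp1 overlaps through treated replicate 3 at 15.0 CPM and vehicle replicate 2 at 15.4 CPM.

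The cap-binding complex itself showed no call. Eif4e, the cap-binding protein, had 58.6, 68.0, 67.6 and 72.5 CPM with BRD4780 and 76.1, 72.2, 67.3 and 68.5 CPM with vehicle, which overlap (log2 fold change -0.09 ± 0.08, 95% interval -0.28 to 0.09). All 3 cap-binding genes had negative log2 fold changes, the lowest being -0.21 ± 0.18 for Eif4e3, an eIF4E relative of low level (edgeR adjusted p = 0.483). The 3 scaffold genes were also all negative. Eif4g2, the scaffold that lacks an eIF4E site, had 600, 639, 771 and 717 CPM with BRD4780 and 776, 830, 798 and 770 CPM with vehicle. Only treated replicate 3 reached the vehicle range, and the log2 fold change was -0.22 ± 0.10 (edgeR adjusted p = 0.191), or -0.28 without that library (adjusted p = 0.0237). Without treated replicate 1 it was -0.16 (edgeR adjusted p = 0.378), and without treated replicate 2 it was -0.19 (adjusted p = 0.361). Eif4g1, the main scaffold, averaged 289.7 ± 30.8 CPM with BRD4780 and 316.3 ± 23.1 CPM with vehicle (SD, n = 4 each; log2 fold change -0.13 ± 0.10).

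The helicases and their cofactors spanned log2 fold changes of -0.03 to 0.10. Eif4a1, the main helicase, averaged 366.2 ± 12.2 CPM with BRD4780 and 373.2 ± 18.7 CPM with vehicle, and 65.3% of its runs of 50 bases occur in other annotated genes, mostly the pseudogene Eif4a-ps4. The sign of its log2 fold change of -0.03 turned to 0.04 with total counts unscaled. Eif4b, the cofactor, was at 349, 494, 397 and 467 CPM with BRD4780 and 380, 400, 394 and 414 CPM with vehicle, so its treated libraries lay below, inside and above the vehicle range.

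Eif5, which makes eIF2 hydrolyse its GTP at the start codon, lies at chr12:111538016-111546752 on the plus strand. It had 328, 320, 266 and 379 CPM with BRD4780 and 253, 231, 216 and 264 CPM with vehicle. All treated libraries were above all vehicle libraries, by a narrow margin for treated replicate 3. The log2 fold change was 0.42 ± 0.11 (95% interval 0.17 to 0.67), and the adjusted p was 0.0717 by edgeR and 0.0125 by DESeq2. Without BRD4780 replicate 3 it was 0.50 (edgeR adjusted p = 0.00394). It was 0.41 without replicate 1 (edgeR adjusted p = 0.171) and 0.43 without replicate 2 (adjusted p = 0.145) of the BRD4780 group. Eif5b, which joins the ribosomal subunits, averaged 208 ± 28.2 CPM with BRD4780 and 173.2 ± 15.5 CPM with vehicle (SD, n = 4 each; log2 fold change 0.26 ± 0.11, edgeR adjusted p = 0.174).

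The eIF2 subunits had log2 fold changes of both signs, and none was called. Differences between the subunits were not tested. Eif2s2, the beta subunit, had 92.5, 111, 82.3 and 121 CPM with BRD4780 and 85.5, 87.9, 85.0 and 85.5 CPM with vehicle. Its vehicle libraries were tightly grouped and treated replicate 3 lay below them. Of the runs of 50 bases in Eif2s2, 27.8% also occur in Gm9892. Eif2s1, the alpha subunit that the stress kinases phosphorylate, averaged 46.1 ± 4.13 CPM with BRD4780 and 50.3 ± 2.40 CPM with vehicle (log2 fold change -0.12 ± 0.08). The gamma subunit has an X-linked and a Y-linked gene. Eif2s3y, on Y, had 77.5, 78.0, 68.2 and 78.0 CPM with BRD4780 and 62.4, 59.0, 59.6 and 72.3 CPM with vehicle (log2 fold change 0.25 ± 0.09, edgeR adjusted p = 0.121). Eif2s3x had 93.4, 127, 122 and 119 CPM with BRD4780 and 121, 134, 126 and 125 CPM with vehicle (-0.13 ± 0.10). The Y-linked share of the summed level per kilobase was 56.6 ± 4.07% with BRD4780 and 49.8 ± 2.93% with vehicle (SD, n = 4 each). Of the runs of 50 bases in Eif2s3x, 36.2% occur in other annotated genes, most in Gm2223, so this share depends on how such reads were divided.

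The 5 subunits of eIF2B, the exchange factor that recharges eIF2 with GTP, ranged from -0.02 to 0.13 in log2 fold change. Eif2b5, its catalytic subunit, averaged 94.7 ± 5.00 CPM with BRD4780 and 91.8 ± 3.69 CPM with vehicle. Eif2b3 had the largest value of the 5 at 0.13 ± 0.10 (edgeR adjusted p = 0.442). Eif2a, a separate protein that can bring initiator tRNA without eIF2, had 65.3, 72.0, 62.5 and 78.5 CPM with BRD4780 and 56.4, 58.8, 53.6 and 62.0 CPM with vehicle. The groups did not overlap, by a margin of under 1 CPM at treated replicate 3, and the log2 fold change was 0.26 ± 0.09 (edgeR adjusted p = 0.110).

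The start-codon factors eIF1 and eIF1A gave values of both signs. Eif1, which guards start codon choice, had 594, 662, 541 and 704 CPM with BRD4780 and 508, 600, 580 and 485 CPM with vehicle, with overlap (log2 fold change 0.20 ± 0.11, edgeR adjusted p = 0.274). Eif1b, its close relative, was at 40.6, 41.0, 41.3 and 35.8 CPM with BRD4780 and 44.3, 48.9, 46.2 and 44.2 CPM with vehicle. These groups stood apart, with a log2 fold change of -0.21 ± 0.08 (edgeR adjusted p = 0.139). Of the summed Eif1 and Eif1b level per kilobase, Eif1b held 7.59 ± 1.18% with BRD4780 and 9.78 ± 0.55% with vehicle (SD, n = 4 each).

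The scaffold complex eIF3 had 11 of 14 genes with a positive log2 fold change and no call, where 6952 of all 13474 genes tested were positive. Eif3g, a subunit at the mRNA entry side, had 97.0, 104, 74.2 and 89.9 CPM with BRD4780 and 73.3, 80.9, 78.4 and 74.3 CPM with vehicle (0.25 ± 0.10, edgeR adjusted p = 0.167). Eif3i, a WD-repeat subunit, was lower in all treated libraries at 127, 134, 141 and 126 CPM, against 149, 150, 147 and 144 CPM with vehicle (-0.16 ± 0.07, edgeR adjusted p = 0.182). Eif3j1 and Eif3j2 must be read together, since 90.8% of the runs of 50 bases in Eif3j2 also occur in Eif3j1. Eif3j2 was listed at 4.39, 0, 18.1 and 0 CPM with BRD4780 and 7.72, 20.0, 3.29 and 11.4 CPM with vehicle, and libraries high in it were low in Eif3j1. Their summed level was 59.1 ± 4.26 CPM with BRD4780 and 52.9 ± 1.16 CPM with vehicle (SD, n = 4 each). The log2 fold change of Eif3j1 alone, 0.33 ± 0.16 (edgeR adjusted p = 0.235), and that of Eif3j2, -0.81 ± 1.02, therefore rest on how shared reads were divided.

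Factors that act at the ribosome after start codon choice were likewise not called. Eif5a, the hypusine-bearing factor that helps the ribosome through difficult peptide bonds, averaged 424.2 ± 26.6 CPM with BRD4780 and 469.4 ± 24.1 CPM with vehicle (log2 fold change -0.15 ± 0.08). Its low-level relative Eif5a2 was higher in all treated libraries, at 8.53, 9.96, 9.35 and 8.87 CPM against 7.39, 7.37, 8.04 and 6.86 CPM with vehicle (0.31 ± 0.12, edgeR adjusted p = 0.147). Eif6, which keeps the ribosomal subunits apart, averaged 114 ± 4.73 CPM with BRD4780 and 105 ± 10.6 CPM with vehicle (0.12 ± 0.08).

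Among the elongation factors, Eef1a1 was the largest message of the set. It lies at chr9:78478449-78489151 on the minus strand, and its levels were 7496, 8854, 7121 and 9069 CPM with BRD4780 and 7039, 6854, 7193 and 6965 CPM with vehicle. Treated replicates 1, 2 and 4 were above all vehicle libraries and replicate 3 was within their range (log2 fold change 0.21 ± 0.11, edgeR adjusted p = 0.269). Of its runs of 50 bases, 59.2% occur in 20 other annotated genes, most in Gm13456, so its level depends on how such reads were shared out. The exchange factors of eEF1A gave 0.30 ± 0.11 for Eef1d (edgeR adjusted p = 0.144) and 0.23 ± 0.09 for Eef1b2 (adjusted p = 0.158), while the structural subunit Eef1g was at -0.01 ± 0.07. Runs of 50 bases shared with other annotated genes were 64.3% for Eef1g (most with Gm4366), 17.3% for Eef1d and 5.98% for Eef1b2. Eef1d had 195, 193, 135 and 180 CPM with BRD4780 and 141, 141, 150 and 141 CPM with vehicle, with treated replicate 3 the lowest of all 8 libraries.

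Eef2, the translocase, averaged 1769 ± 176 CPM with BRD4780 and 1633 ± 27.2 CPM with vehicle (SD, n = 4 each; log2 fold change 0.11 ± 0.10, 95% interval -0.10 to 0.33). Eef2k, the kinase that shuts eEF2 off, had 7.53, 9.56, 6.53 and 8.87 CPM with BRD4780 and 6.60, 7.03, 7.86 and 6.86 CPM with vehicle, with overlap. Eef1e1, a scaffold protein of the aminoacyl-tRNA synthetase complex that the name rule takes in, was lower in all treated libraries at 12.6, 13.8, 14.1 and 12.9 CPM, against 16.0, 16.0, 15.3 and 15.5 CPM with vehicle. Its log2 fold change was -0.23 ± 0.09 (edgeR adjusted p = 0.152).

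**Figure D3:**
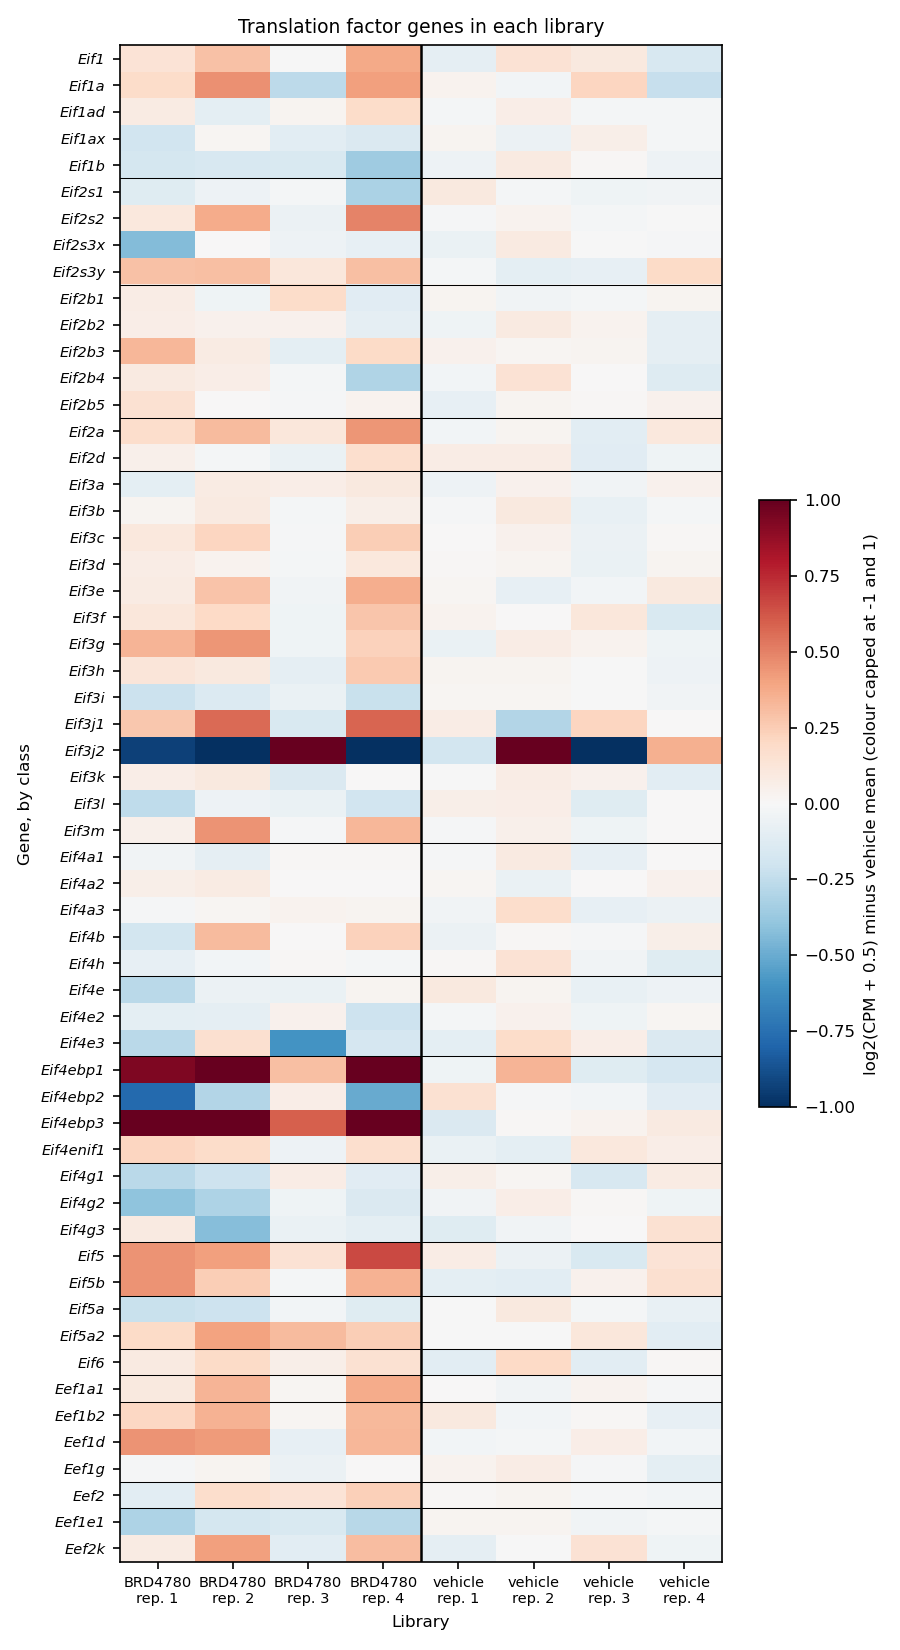
Each of the 57 genes (rows, by class) in each library (columns, BRD4780 left of the line, vehicle right): log2 of CPM plus 0.5, minus the vehicle mean, with the colour capped at -1 and 1. Eif4ebp3 and Eif4ebp1 are the red rows in the treated columns, paler in replicate 3, and Eif3j2 varies within both groups.

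Leaving out BRD4780 replicate 3 changed the count most: 14 of the 57 genes were then higher and 2 lower (Eif4ebp2 and Eif4g2). Of all 13558 genes tested in that fit, 12.1% were higher and 11.3% lower. The 14 were Eif4ebp3, Eif4ebp1, Eef1d, Eif5, Eif3g, Eef1b2, Eif5b, Eif3j1, Eif2a, Eif2s2, Eif2s3y, Eef1a1, Eif1a and Eif3m. After Eif4ebp3 and Eif4ebp1, the largest increase among them was that of Eif5 at 0.50.

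The levels of the set spanned more than 3 orders of magnitude per kilobase. Eef1a1 stood at 4535 ± 541 CPM per kilobase with BRD4780 and 3909 ± 79.4 with vehicle (SD, n = 4 each here and below), first of the 57 in both groups. Eef2 (573 ± 57.0 with BRD4780 and 529 ± 8.80 with vehicle), Eif1 (473 ± 54.7 and 411 ± 41.9) and Eif5a (295 ± 18.5 and 327 ± 16.7) followed in both groups. Eef2k was last, at 1.23 ± 0.21 with BRD4780 and 1.08 ± 0.08 with vehicle. Of the 56 pairs of neighbours in the vehicle order, 41 overlapped across their libraries and 15 did not. The 4 highest genes were each apart from the next below, and so were pairs inside the order such as Eif4a1 and Eif4a2, Eif3i and Eif4b, and Eif2s2 and Eif4e2. Eif4ebp3 ranked 16 with BRD4780 and 36 with vehicle (85.5 ± 27.6 and 29.7 ± 2.06 CPM per kilobase), and Eif4ebp1 ranked 48 and 52 (12.8 ± 4.02 and 6.12 ± 1.08).

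**Figure D4:**
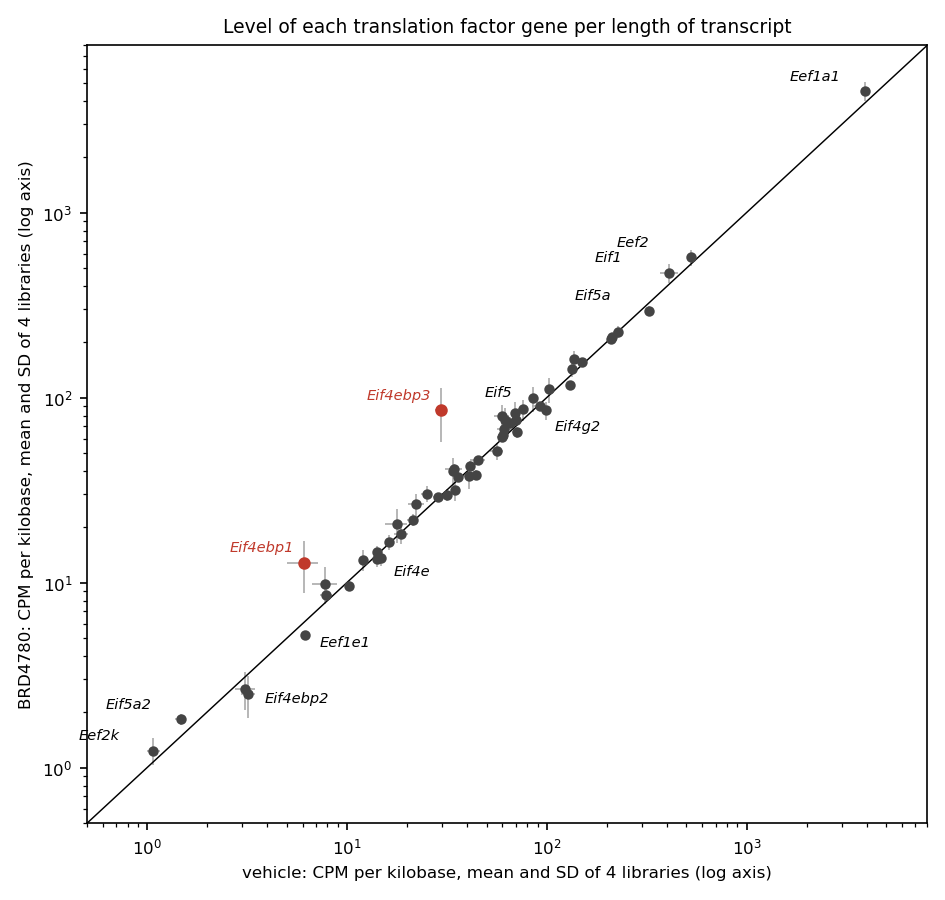
Mean CPM per kilobase of principal transcript with BRD4780 (vertical, log axis) and vehicle (horizontal, log axis), bars SD of 4 libraries, with the line of equality; Eif3j2, listed at 0 in a pair of libraries, is not drawn. Eef1a1 is at the top right, and Eif4ebp3 (85.5 against 29.7) and Eif4ebp1 (12.8 against 6.12), in red, lie above the line.

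Together the 57 genes took 1.62 to 2.05% of all counts with BRD4780 and 1.61 to 1.66% with vehicle. Eef1a1 alone took 0.682 to 0.944% with BRD4780 and 0.662 to 0.710% with vehicle. BRD4780 replicate 3 had the lowest value of the treated group on both measures.

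The lists of related genes show what surrounded these factors. Of 15 kinases and phosphatase subunits of eIF2 alpha and genes of the ATF4 branch, 7 were higher and 0 lower, with a median log2 fold change of 0.60. Among all 13474 genes tested, edgeR called 2.3% higher and 0.623% lower. This list was chosen with earlier results of these data known. The called genes were Atf5, Atf4, Chac1, Trib3, Asns, Impact and Eif2ak3. Atf5, a transcription factor related to ATF4, had 133, 117, 48.8 and 142 CPM with BRD4780 and 14.4, 17.7, 14.8 and 14.6 CPM with vehicle (log2 fold change 2.83 ± 0.29, edgeR adjusted p = 0.00207). Atf4, the transcription factor at the head of the branch, had 190, 191, 159 and 192 CPM with BRD4780 and 117, 130, 120 and 116 CPM with vehicle (0.60 ± 0.08, edgeR adjusted p = 0.0106). Chac1, which breaks down glutathione, was at 4.26, 6.34, 3.30 and 11.2 CPM with BRD4780 and 1.08, 1.18, 0.914 and 1.38 CPM with vehicle (2.38 ± 0.37, edgeR adjusted p = 0.0149). In each of these genes the groups stood apart and treated replicate 3 was the lowest treated library, the order also seen for Eif4ebp3 and Eif4ebp1. That order is not particular to these genes, since treated replicate 3 was nearest to the vehicle mean for 39 of 56 translation factor genes. A link between the lists was not tested.

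**Figure D5:**
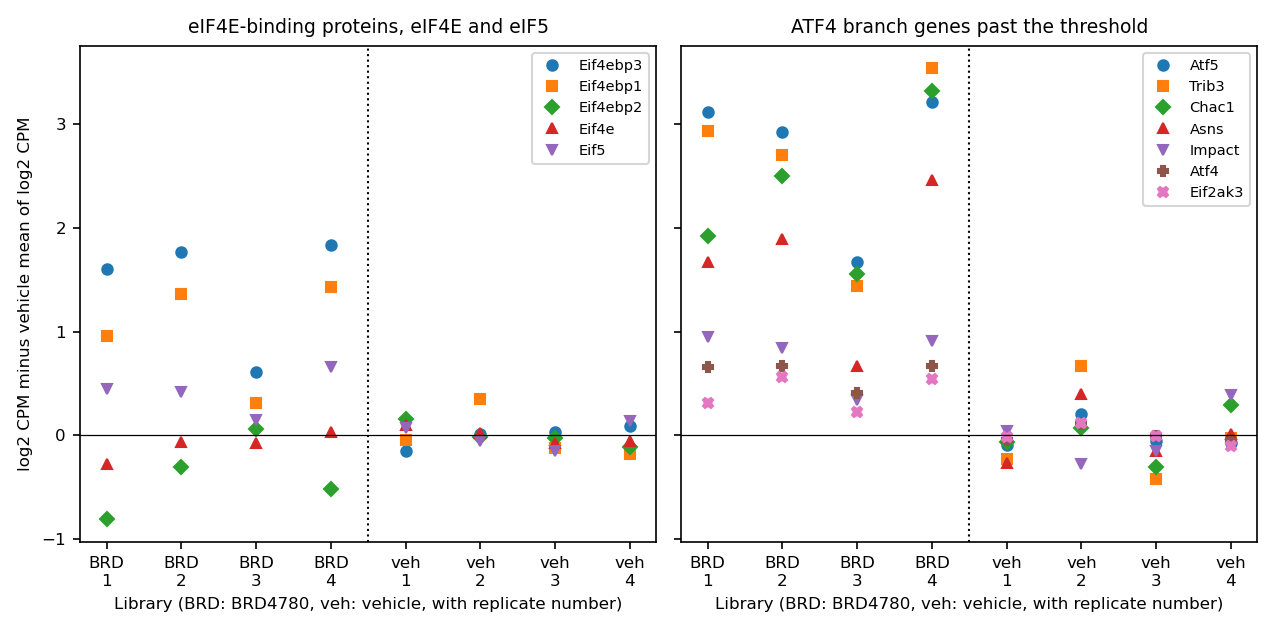
Log2 CPM minus the vehicle mean of log2 CPM (vertical axis) in each library, BRD4780 left of the dotted line and vehicle right of it, for 5 translation factor genes (left panel) and the 7 genes of the ATF4 branch list past the threshold (right panel). The 7 genes and Eif4ebp3, Eif4ebp1 and Eif5 are above 0 in all 4 treated libraries and are lowest there in replicate 3.

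Other lists of the translation machinery held no call in either direction. They were 26 termination, recycling and other translation factors (median log2 fold change 0.07, 5 higher and 3 lower at an unadjusted edgeR p under 0.05), 7 genes of hypusine and diphthamide synthesis (0.11, 0 and 0), and 76 cytosolic ribosomal proteins (0.12, 4 and 0). The ribosomal proteins had positive values for 67 of the 76 genes, where all 13474 genes tested had 6952 positive and 6522 negative values. Of 25 tested genes of mTORC1 and MNK signalling, which control the eIF4E-binding proteins and eIF4E by phosphorylation, 0 were called by edgeR (median 0.03, 5 higher and 1 lower at an unadjusted p under 0.05). Ddit4, an inhibitor of mTORC1, had 32.2, 22.8, 34.8 and 139 CPM with BRD4780 and 19.8, 16.5, 18.0 and 23.4 CPM with vehicle, so BRD4780 replicate 4 was far above the other libraries (2.82-fold, adjusted p = 0.108). The mitochondrial translation factors had 0 of 10 called, with 8 negative values and a median of -0.19 (0 higher and 4 lower at an unadjusted edgeR p under 0.05). Among all 13474 genes tested, edgeR called 2.3% higher and 0.623% lower. At an unadjusted edgeR p under 0.05, these shares were 13.9% and 10.7%.

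Promoters of 44 of the genes were matched in RefSeq (GRCm38.p6), as 58 windows from 250 bases before to 50 after a start. The motif TGATGNAA, a form of the element that ATF4 dimers bind, was searched on both strands and found in 2 of these windows (Eef2k and Eif2s3x), against 3.97% of all 32851 windows. The motif CACGTG, the core of the E-box, was in 14 of the 58 windows (12 genes: Eef2, Eef2k, Eif1b, Eif3a, Eif3f, Eif3k, Eif4a1, Eif4e, Eif4g1, Eif4h, Eif5a and Eif5a2), against 7.15% of all windows. Windows of 1 gene can overlap, as those of Eif5a do, and base composition was not compared. The motif TGACGTCA, the cyclic AMP response element, was in 1 window (Eef2), against 1.79%. No gene with a match to any of these motifs was called, but edgeR called only 2 of the 57 genes, so this says little. Whether these 2, Eif4ebp3 and Eif4ebp1, were among the 44 genes with a window is not given here. Sequence outside these windows, and promoters of genes not matched in RefSeq, were not searched.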

How the data were processed

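Kidney RNA of 8 mice was read by stranded, oligo-dT selected RNA sequencing, per the labels' protocols. The deposited values are expected counts per gene, not normalized. The submitters' processing notes list RSEM 1.3.0, Picard and STAR 2.5.2b, with mm10 and hg19 as builds and no role for either. The sources used here give neither the annotation nor the strand setting of the counting. RSEM divides reads shared by similar genes among them, and 15.1 to 28.9% of a library's values differed from a whole number by more than 0.001. The table had 22121 entries, and 343 repeated symbols were collapsed, leaving 21759 genes. It held 1 further column that matched none of the samples and was not used.

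Counts were rounded to whole numbers, filtered with filterByExpr (minimum count 10), scaled by TMM and tested with edgeR 4.0.16 (R 4.3.3, quasi-likelihood F-test, no covariate) over 13474 genes. Adjustment was by Benjamini-Hochberg, with a threshold of 0.05. The SE is the absolute log2 fold change over the square root of F. CPM use TMM-scaled totals. DESeq2 1.42.0 and limma 3.58.1 (voom) were run as alternatives, and the fit was checked on simulated counts. Coordinates, transcript lengths and runs of 50 bases come from GENCODE M21.

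The genes and lists were chosen with earlier results of these data known, and no list was tested as a whole. Named genes are those past the threshold, the 6 largest changes above a mean log2 CPM of 1, the smallest p in each class, and a fixed set of core factors. From each related list the rule names at most 4 genes past the threshold. Eif3i, Eif4enif1, Eif5b, Eef1b2, Eef1g, Asns, Impact, Eif2ak3, Ddit4, Ankhd1, genes named only as part of a count, and the promoter motifs were added after values were seen. Gcn1, Rack1, Castor1, Castor2, Dph6, Dph7 and Mtrfr, also on the lists, were not analysed here.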

Additional observations from a re-analysis of the deposited data

Results flagged for a closer look

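In 7 of 114 groups of 4 libraries (57 genes, 2 groups each) 1 library lay far from the other three, with a gap of more than 0.829 of the group's range; about 1 in 20 groups is flagged by chance. In the BRD4780 group, Eif1b was lowest in replicate 4 (35.8 CPM), Eif2s3y in replicate 3 (68.2 CPM) and Eif3a in replicate 1 (198 CPM). In the vehicle group, Eif1ad was highest in replicate 2 (37.6 CPM), Eif2s1 in replicate 1 (53.9 CPM) and Eef1d in replicate 3 (150 CPM), and Eif3d was lowest in replicate 3 (110 CPM). Vehicle replicate 3 held 2 of the 7, and neither BRD4780 replicate 2 nor vehicle replicate 4 held any. None of these genes was called higher or lower by edgeR over all 8 libraries.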

How the results depend on the processing

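Of all genes tested, 310 were called higher and 84 lower by edgeR. DESeq2 gave 864 and 497, limma-voom gave 204 higher, and leaving out 1 library at a time gave 26 to 1647 higher and 5 to 1537 lower. Of the 57 translation factor genes, 2 were higher and 0 lower, with 1 higher under limma-voom and 0 to 14 higher and 0 to 2 lower when 1 library was left out. The lowest counts came without vehicle replicate 2 and the highest without BRD4780 replicate 3, and the cause was not tested. Thinning every library to the total of the shallowest kept Eif4ebp3 and Eif4ebp1 called. The median log2 fold change of all genes, 0.0097, was 0.00019 by DESeq2, 0.00040 with its size factors, 0.00051 with upper quartile scaling, 0.080 with unscaled totals and 0.0032 to 0.021 with 1 library left out. That of the 57 genes, 0.046, was 0.12 with unscaled totals and 0.028 to 0.068 with 1 library left out. The log2 fold change of Eif4a1, -0.03, changed sign to 0.042 with unscaled totals, and was -0.064 to 0.0035 with 1 library left out, above 0 without vehicle replicate 2. Replicate numbers pair nothing, but the titles of 4 libraries share 2 starting numbers across the groups (BRD4780 replicate 1 with vehicle replicate 2, BRD4780 replicate 2 with vehicle replicate 4), with no label saying what these mark. Deviations from the group means correlated at -0.0097 and -0.30 in these pairs, against -0.27 to 0.28 in the other pairs across groups. A fit with the title number as a replicate block, chosen after seeing the data and with 1 residual degree of freedom, called 57 genes higher and 90 lower, with a median log2 fold change of 0.036 over all genes. Of the 57 translation factor genes it called 1 higher, Eif4ebp3 (1.63, edgeR adjusted p = 0.0171), and 0 lower; Eif4ebp1 was at 1.07 (adjusted p = 0.106). Genes of low level such as Eef2k, Eif4e3 and Eif5a2, and the shallow BRD4780 replicate 4, limit the precision.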
